A study of Homo sapiens with 9 samples.

Results

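The pyruvate dehydrogenase complex sits in the mitochondrial matrix and turns pyruvate, the end product of glycolysis, into acetyl-CoA for the citric acid cycle and for lipid synthesis. Its E1 enzyme is built from the proteins encoded by PDHA1 and PDHB, its E2 acetyltransferase by DLAT, and the protein that anchors E3 to the core by PDHX. The kinases PDK1, PDK2, PDK3 and PDK4 phosphorylate E1 alpha, the product of PDHA1, and switch the complex off. The phosphatases PDP1 and PDP2 remove the phosphate and switch it on again. PDK1 is known as a target of the hypoxia-inducible factor HIF-1, and PDK4 as a gene raised by fasting and by fatty acids through PPAR and FOXO factors. Transcript levels of these 10 genes were followed in HaCaT, a keratinocyte line from human skin that grows without limit in culture. The genes were taken by symbol from the 20263 genes of the deposited count table, where 10 of 10 were found and 10 of 10 passed the filter on low counts. The set was drawn up with earlier results of these data known, and its one member chosen by a measured value was PDK4, selected on its lack of counts in the control libraries. PDK4 is therefore described against control without a test. PDK4 passed the filter through the groups in which it was read.

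The 9 libraries fell into 3 groups of 3. Melanosome-laden HaCaT cells treated with glabridin, an isoflavan of licorice root, are called glabridin libraries here. HaCaT cells laden with melanosomes alone, the pigment organelles that melanocytes hand to keratinocytes, are called melanosome libraries. Untreated HaCaT cells, labelled WT or Blank, are the control libraries. No library came from cells given glabridin without melanosomes, so glabridin was compared on the melanosome-laden background. The sources used here state no glabridin dose, no time and no source of the melanosomes. The study addressed how glabridin acts on the breakdown of melanosomes in keratinocytes.

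Deposited counts summed to between 42582054 and 46591852 in glabridin libraries, between 39653425 and 46690787 in melanosome libraries and between 41793696 and 45839573 in control libraries. Nothing in the labels says that replicates were separate cultures, and p-values then reflect only how far these libraries lie apart. Over the 13912 genes tested, the median SD of log2 CPM (counts scaled to library size) within a group was 0.195 in glabridin, 0.0904 in melanosome and 0.0656 in control libraries. The 9 keratinocyte markers summed to 6994 to 9418 CPM in glabridin, 9309 to 9899 CPM in melanosome and 11260 to 11390 CPM in control libraries, and none of them was at 0. The 14 melanocyte markers summed to 1935 to 3677 CPM in glabridin, 3286 to 3416 CPM in melanosome and 50.5 to 55.0 CPM in control libraries. RAB38 made up most of the melanocyte sum in control libraries, at 44.2 CPM on average. TYR, OCA2, TRPM1 and KIT, which mark melanocytes, were at 0 in every control library. The 7 fibroblast markers reached at most 14.8, 20.3 and 45.5 CPM, the 6 immune markers 119, 77.4 and 61.3 CPM, and the 4 endothelial markers 4.98, 12.2 and 38.2 CPM in glabridin, melanosome and control libraries. PTPRC and TYROBP, which mark immune cells, were at 0 in all 9 libraries. Most of the immune sum came from CD68, which averaged 109, 69.1 and 53.7 CPM in glabridin, melanosome and control libraries. CD14, on the same list, went the other way at 3.75, 4.39 and 5.40 CPM. PDGFRB, a fibroblast marker, and KDR, an endothelial one, were at 0 in the control libraries and averaged at most 0.0292 CPM in the other groups. Most of the control sums came from DCN on the fibroblast list and CDH5 on the endothelial list. DCN averaged 3.01, 5.77 and 32.0 CPM and CDH5 1.95, 6.01 and 31.5 CPM in glabridin, melanosome and control libraries. LUM, a fibroblast marker, went the other way at 2.23, 2.99 and 0.339 CPM.

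The promoters of PDK4, PDHA1 and PDK1 are printed because PDK4 and PDHA1 had the largest differences between groups and because PDK1 and PDK4 differed in opposite directions between glabridin and melanosome libraries. Each window runs from 250 bases before to 50 bases after a RefSeq transcription start (GRCh38.p14), on the strand of the gene. Capitals mark the core letters of the hypoxia response element, ACGTG or GCGTG, on either strand, so that CACGT and CACGC are the same motif read from the other strand. PDK4 lies at chr7:95596467-95596766 on the minus strand, PDHA1 at chrX:19343677-19343976 and PDK1, at the second of its 2 annotated starts, at chr2:172555840-172556139, both on the plus strand.
PDK4: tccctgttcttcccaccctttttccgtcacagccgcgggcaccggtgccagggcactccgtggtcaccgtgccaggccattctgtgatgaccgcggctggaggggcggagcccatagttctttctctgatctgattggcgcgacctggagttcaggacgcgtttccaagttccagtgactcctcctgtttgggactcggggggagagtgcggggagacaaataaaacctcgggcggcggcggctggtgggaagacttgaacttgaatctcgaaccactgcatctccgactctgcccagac
PDHA1: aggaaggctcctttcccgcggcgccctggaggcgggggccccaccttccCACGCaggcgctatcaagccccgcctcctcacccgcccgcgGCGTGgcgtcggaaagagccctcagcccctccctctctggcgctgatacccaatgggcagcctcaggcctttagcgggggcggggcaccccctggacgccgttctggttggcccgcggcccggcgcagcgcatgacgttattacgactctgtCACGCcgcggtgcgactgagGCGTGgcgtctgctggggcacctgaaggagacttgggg
PDK1: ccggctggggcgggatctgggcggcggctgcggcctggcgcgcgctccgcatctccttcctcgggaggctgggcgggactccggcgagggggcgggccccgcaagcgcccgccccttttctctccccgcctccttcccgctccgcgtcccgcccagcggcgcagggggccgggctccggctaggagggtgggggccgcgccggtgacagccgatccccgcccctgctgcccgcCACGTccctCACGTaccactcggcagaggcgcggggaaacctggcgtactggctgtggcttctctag

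The core was found 0 times in the PDK4 window, 4 times in the PDHA1 window and 2 times in the PDK1 window. The other PDK1 window, chr2:172555123-172555422, held 0. Of the 10 genes, 9 had a window in the RefSeq table, and these had 13 windows in all. The core stood 2 times in the PDK3 window, 3 times in those of PDP2 and DLAT, and 6 times in that of PDHB. PDK2 and PDHX each had a window with it, with 3 and 2 matches. Of all 34943 RefSeq windows of this length, 48.4% hold the core. The E-box CACGTG, which contains ACGTG, was found once in 1 window each of PDK2, PDP2 and PDHB, out of the 13, against 7.23% of all windows. The forkhead motif TGTTTAC (3.42% of all windows) and the estrogen-related receptor motif TCAAGGTCA (0.355%) were found in 0 of the 13 windows on either strand. The percentages over all windows were not matched for GC content, which ran from 36.3% to 77.0% in the 13 windows. A match describes the letters only.

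PDK4, the kinase gene known from fasting muscle and liver, had the widest range of the 10 genes. It was read at 332, 493 and 379 CPM in the glabridin libraries, at 136, 115 and 107 CPM in the melanosome libraries, and at 0 CPM in each control library. The 3 groups did not overlap, and all glabridin libraries stood above all melanosome libraries. In counts this was 14797, 19629 and 17283 in glabridin, 7031, 4892 and 5332 in melanosome and 0, 0 and 0 in control libraries. PDK4 was 3.36-fold higher in glabridin than in melanosome libraries (401 ± 82.9 CPM against 119 ± 15.1 CPM, mean ± SD, n = 3 each), a log2 difference of 1.75 ± 0.15 (SE, edgeR quasi-likelihood test, Benjamini-Hochberg adjusted p = 3.36e-05). In bulk RNA, more cells with a transcript and more RNA per cell cannot be told apart. Taking 3 counts over the control group as the limit that a count of 0 allows, which equals 0.0234 CPM, PDK4 was at least 17165-fold higher in glabridin and at least 5104-fold higher in melanosome libraries than in control. These bounds cover counting error only. If each mate of a read pair added a count, which no source states, the limit is 6 counts and PDK4 was at least 8582-fold higher in glabridin and at least 2552-fold higher in melanosome libraries.

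The melanocyte markers moved with PDK4 against control, and 14 of 14 were called higher in both glabridin and melanosome libraries. Between glabridin and melanosome libraries, 1 of the 14 was higher and 5 were lower, against 23.7% and 20.2% of all tested genes. The higher one was RAB38, which also made up most of the control sum. PDK4 was higher in that comparison. Within the glabridin group the melanocyte marker sums were 2330, 3677 and 1935 CPM in replicates 1, 2 and 3. Replicate 2 led in both measures, and replicates 1 and 3 stood in the other order than for PDK4. PMEL made up most of these sums, at 1602 CPM on average against a mean sum of 2647 CPM. The keratinocyte sums were 7553, 9418 and 6994 CPM in the same libraries. Their part in the PDK4 values was not tested.

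PDK1, the kinase gene most closely tied to HIF-1, was lowest in glabridin libraries. It stood at 9.74, 12.0 and 11.3 CPM in glabridin libraries, at 18.5, 16.5 and 17.0 CPM in melanosome libraries and at 15.6, 14.2 and 14.04 CPM in control libraries. None of the 3 groups overlapped. PDK1 fell in glabridin against melanosome libraries by 0.66 ± 0.10 on the log2 scale (edgeR, adjusted p = 0.000518) and against control by 0.41 ± 0.10 (adjusted p = 0.0045). Against control, the melanosome libraries differed by 0.25 ± 0.10 (log2), which did not pass the edgeR test (adjusted p = 0.0559) with TMM scaling of all 9 libraries. The difference passed under 6 of 14 alternatives, among them only the 2 groups compared (0.33, edgeR adjusted p = 0.00196).

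PDK3, an X-linked kinase gene, had its peak in the melanosome group. Its levels were 4.27, 6.06 and 3.64 CPM in glabridin libraries, 8.29, 8.19 and 6.95 CPM in melanosome libraries and 3.28, 3.05 and 3.56 CPM in control libraries. All melanosome libraries stood above the others, and the lowest glabridin library stood just above the highest control library. PDK3 rose 2.37-fold in melanosome against control libraries (log2 1.24 ± 0.18, edgeR adjusted p = 0.000166) and fell by 0.75 ± 0.18 (log2) in glabridin against melanosome libraries (adjusted p = 0.00556). Its excess in glabridin over control, 0.49 ± 0.18 (log2, adjusted p = 0.0321), was called under 8 of 14 alternatives. It was lost without glabridin replicate 1 or control replicate 1 or 2, and was 0.26 (edgeR adjusted p = 0.116) without glabridin replicate 2.

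PDK2, the widely expressed kinase gene, was read at 28.4, 38.3 and 24.3 CPM in glabridin libraries, at 32.6, 34.0 and 39.3 CPM in melanosome libraries and at 28.2, 28.8 and 26.7 CPM in control libraries. Glabridin libraries overlapped both other groups, while melanosome libraries stood above control. None of its 3 comparisons passed the edgeR test, with log2 differences of -0.22 ± 0.15 for glabridin against melanosome (adjusted p = 0.249), 0.34 ± 0.15 for melanosome against control (adjusted p = 0.0637) and 0.12 ± 0.15 for glabridin against control (adjusted p = 0.48). Without glabridin replicate 2, in which PDK2 was highest, the difference from the melanosome group was -0.42 (adjusted p = 0.00342), and it was also called with library totals alone and with limma. The melanosome difference from control was called under 6 of 14 alternatives, which were RLE factors, library totals alone, upper-quartile factors, only the 2 groups compared, DESeq2 and limma. It reached 0.51 (edgeR adjusted p = 0.00909) with library totals alone and 0.42 ± 0.068 (edgeR adjusted p = 9.41e-05) with only the 2 groups compared. Whether PDK2 counts as higher in melanosome libraries thus depends on the scaling and on the libraries in the fit.

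**Figure D1:**
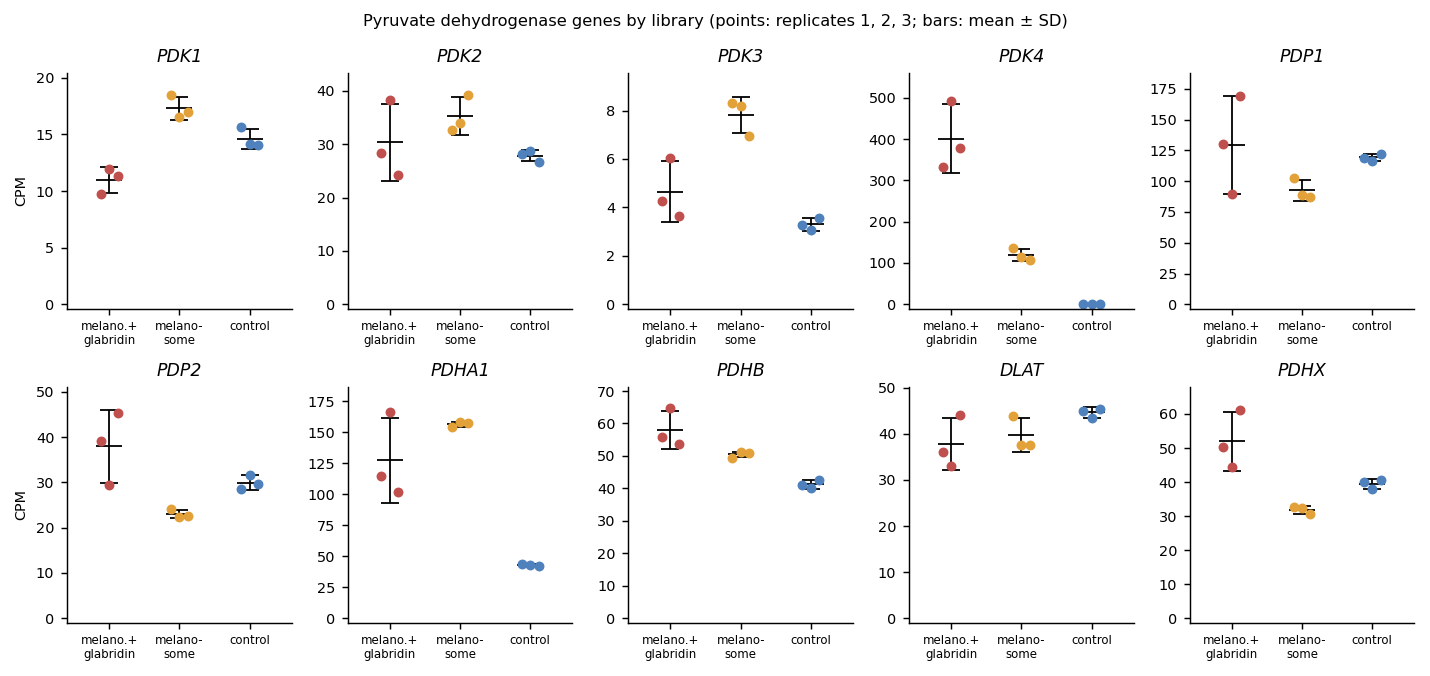
Level of each of the 10 genes by library, in CPM on TMM-scaled library sizes, where points are replicates 1, 2 and 3 from left to right, bars are the mean ± SD (n = 3), and "melano.+ glabridin" stands for melanosome-laden cells treated with glabridin. PDK4 runs from 0 in control to 493 CPM in a glabridin library, PDHA1 stands highest in the melanosome group on average, and PDK1 is lowest in glabridin libraries.

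To compare the kinases with each other, the deposited TPM were used, which also divide by transcript length. In TPM the 4 kinase genes summed to 316 ± 52.5 in glabridin, 137 ± 15.3 in melanosome and 24.1 ± 0.501 in control libraries (SD, n = 3 each). PDK4 made up 91.7% ± 0.999 of this sum in glabridin libraries and 71.7% ± 3.23 in melanosome libraries, against 0% in control. PDK2 made up 6.19% ± 0.820 in glabridin, 19.1% ± 3.23 in melanosome and 75.1% ± 1.54 in control libraries. PDK2 was thus the leading kinase transcript in control cells, and PDK4 in both other groups. PDK1 held 0.619%, 2.53% and 10.7% of the sum, and PDK3 held 1.51%, 6.69% and 14.2%, in glabridin, melanosome and control libraries. Without PDK4, the remaining 3 kinase genes summed to 26.2 ± 4.602 TPM in glabridin, 38.6 ± 1.20 TPM in melanosome and 24.1 ± 0.501 TPM in control libraries. Shares and sums are descriptions, since PDK4 was chosen for its lack of control counts.

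**Figure D2:**
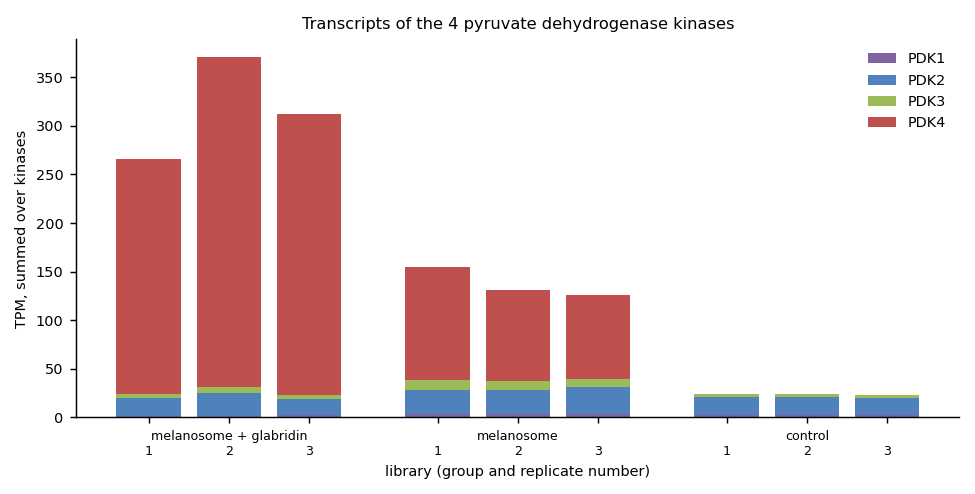
Stacked TPM of PDK1, PDK2, PDK3 and PDK4 in each library, by group and replicate number. The glabridin bars reach 266 to 370 TPM, the melanosome bars 126 to 155 TPM and the control bars 23.6 to 24.5 TPM, with PDK4 the largest piece in the first 2 groups and PDK2 in control.

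Of the phosphatase genes, PDP2 was firmly higher in glabridin than in melanosome libraries, while PDP1 passed narrowly and its libraries overlapped. PDP2 stood at 39.2, 29.4 and 45.4 CPM in glabridin libraries, at 24.0, 22.4 and 22.6 CPM in melanosome libraries and at 28.5, 31.7 and 29.7 CPM in control libraries. Every glabridin library stood above every melanosome library, but glabridin replicate 2 fell within the control range. PDP2 rose 1.65-fold in glabridin against melanosome libraries (log2 0.72 ± 0.13, edgeR adjusted p = 0.00148). It fell by 0.38 ± 0.13 (log2) in melanosome against control libraries (edgeR adjusted p = 0.0297) and rose by 0.34 ± 0.13 in glabridin against control (adjusted p = 0.0393). The first of these calls held under all 14 alternatives, at 0.48 (log2) with limma on log2(TPM + 1), the second under 6 and the third under 4. Without glabridin replicate 3 the difference from control was 0.20 (adjusted p = 0.118). Without melanosome replicate 1, 2 or 3, or control replicate 2 or 3, the melanosome call against control was lost, with adjusted p between 0.0506 and 0.0945, and it was -0.18 (adjusted p = 0.352) with limma.

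PDP1, which encodes the calcium-stimulated phosphatase, varied most within the glabridin group. It was read at 130, 89.3 and 169 CPM in glabridin libraries, at 102.4, 88.8 and 87.0 CPM in melanosome libraries and at 119, 117 and 122 CPM in control libraries. Glabridin replicate 2 lay within the range of the melanosome libraries and replicate 3 above all others. The log2 difference of 0.48 ± 0.18 for glabridin against melanosome libraries passed the edgeR test narrowly (adjusted p = 0.0469) and did so under 4 of 14 alternatives. It was 0.25 (adjusted p = 0.116) without glabridin replicate 3, 0.38 (adjusted p = 0.177) without glabridin replicate 1 and between 0.44 and 0.56 (adjusted p 0.0615 to 0.138) without any 1 melanosome library. PDP1 did not pass against control in melanosome (-0.36 ± 0.18, adjusted p = 0.0957) or glabridin libraries (0.12 ± 0.18, adjusted p = 0.558). All melanosome libraries stood below control, though. That difference was called under 1 of 14 alternatives, only the 2 groups compared (-0.28 ± 0.062, edgeR adjusted p = 0.00118). The glabridin difference from control was 0.33 (edgeR adjusted p = 0.00945) without glabridin replicate 2 and -0.12 (adjusted p = 0.402) without replicate 3.

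Set against each other in TPM, the 4 kinase genes over the 2 phosphatase genes gave ratios of 3.38, 7.15 and 2.96 in glabridin libraries, 2.22, 2.24 and 2.21 in melanosome libraries and 0.353, 0.352 and 0.328 in control libraries. The groups did not overlap, and glabridin replicate 2, with the most PDK4 and the least PDP1, stood far above its group. With PDK4 left out, the ratio was 0.377 ± 0.204 in glabridin, 0.630 ± 0.0710 in melanosome and 0.344 ± 0.0142 in control libraries. The glabridin libraries, at 0.312, 0.606 and 0.215, then overlapped both melanosome (0.555 to 0.696) and control libraries (0.328 to 0.353). Melanosome libraries still stood above control. PDK4 was chosen for its lack of control counts, so the gap of the full ratio to control is a description only. These are ratios of transcripts, not of enzyme activity.

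Among the subunits, PDHA1, which encodes the phosphorylated E1 alpha protein, stood apart. It was read at 115, 166 and 101.4 CPM in glabridin libraries, at 154, 158 and 157 CPM in melanosome libraries and at 44.0, 43.2 and 42.3 CPM in control libraries. All glabridin and melanosome libraries stood above control, while glabridin replicate 2 stood above the melanosome libraries and the other glabridin replicates below them. PDHA1 rose 3.63-fold in melanosome libraries (log2 1.86 ± 0.15, edgeR adjusted p = 2.15e-06) and 2.95-fold in glabridin libraries (log2 1.56 ± 0.15, adjusted p = 4.46e-06), both against control. The glabridin and melanosome groups differed by -0.30 ± 0.14 (log2, edgeR adjusted p = 0.118), and by -0.54 (adjusted p = 1.83e-05) without glabridin replicate 2, one of 4 alternatives among 14 that called it. The melanocyte markers, 14 of 14 called higher against control in both groups, moved in the same comparisons as PDHA1 and PDK3, and their part in these rises was not tested. MAP3K15, which overlaps PDHA1 on the other strand, held 0.814, 1.34 and 0.0159 CPM in glabridin, melanosome and control libraries, far below PDHA1.

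PDHB, the E1 beta gene, moved in the same direction as PDHA1 against control but by less. Its levels were 56.0, 64.7 and 53.6 CPM in glabridin libraries, 49.5, 51.1 and 50.8 CPM in melanosome libraries and 41.1, 40.02 and 42.7 CPM in control libraries. The 3 groups did not overlap. PDHB rose by 0.29 ± 0.078 (log2) in melanosome libraries (edgeR adjusted p = 0.00802) and by 0.49 ± 0.078 in glabridin libraries (adjusted p = 0.00021), both against control. Between glabridin and melanosome libraries the difference was 0.20 ± 0.078 (edgeR adjusted p = 0.0568), and 0.26 (adjusted p = 0.0117) without glabridin replicate 3. That was the only one of 14 alternatives that called it, and the difference ranged down to 0.012 (adjusted p = 0.86) with limma, so it depends on the scaling. The rise in melanosome against control was called under all 14, at up to 0.46 (log2). In TPM, PDHA1 over PDHB was 1.01 ± 0.166 in glabridin, 1.45 ± 0.0062 in melanosome and 0.488 ± 0.0231 in control libraries, for subunits that join in one heterotetramer. PDHA2, the testis form of E1 alpha, was at 0 counts in all 9 libraries.

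PDHX, whose protein binds E3 to the core, was highest in glabridin libraries. It was read at 50.2, 44.4 and 61.3 CPM in glabridin libraries, at 32.8, 32.4 and 30.6 CPM in melanosome libraries and at 39.96, 37.9 and 40.6 CPM in control libraries. All 3 groups were apart, with the melanosome group lowest. PDHX rose 1.63-fold in glabridin against melanosome libraries (log2 0.70 ± 0.11, edgeR adjusted p = 0.000421) and by 0.40 ± 0.11 (log2) against control (adjusted p = 0.00629), with 0.26 against control without glabridin replicate 3. Its fall of 0.31 ± 0.11 in melanosome against control libraries (adjusted p = 0.0276) was lost without melanosome replicate 1, 2 or 3 or control replicate 1 or 3, with adjusted p between 0.0517 and 0.0913. It was also lost with RLE factors (adjusted p = 0.054) and upper-quartile factors (adjusted p = 0.0613), and was -0.14 (edgeR adjusted p = 0.339) with library totals alone and -0.12 (adjusted p = 0.438) with limma, so that 5 of 14 alternatives kept it. These comparisons share their melanosome and control libraries. APIP, a protein-coding neighbour that overlaps PDHX on the other strand, held 19.0, 17.5 and 16.0 CPM in glabridin, melanosome and control libraries.

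DLAT, the E2 gene, passed none of the 3 tests. It stood at 36.2, 33.0 and 44.0 CPM in glabridin libraries, at 44.0, 37.7 and 37.6 CPM in melanosome libraries and at 45.0, 43.4 and 45.5 CPM in control libraries. The groups overlapped in each comparison. Its log2 differences were -0.074 ± 0.11 for glabridin against melanosome (edgeR adjusted p = 0.607), -0.17 ± 0.11 for melanosome against control (adjusted p = 0.194) and -0.24 ± 0.11 for glabridin against control (adjusted p = 0.065). The last was -0.37 (edgeR adjusted p = 0.0018) without glabridin replicate 3. The strand setting of the counting is not stated, so reads of PDK2 and SAMD14 or of DLAT and PIH1D2, pairs on opposite strands, may be shared too, though SAMD14 and PIH1D2 held at most 1.32 CPM on average in any group.

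DLD, the E3 enzyme shared by all 2-oxoacid dehydrogenases, and PDPR, the regulatory subunit of the phosphatase, complete the complex. DLD was read at 58.8, 65.7 and 64.9 CPM in glabridin libraries, at 71.7, 71.5 and 64.8 CPM in melanosome libraries and at 56.3, 53.7 and 53.8 CPM in control libraries. It rose by 0.34 ± 0.070 (log2) in melanosome libraries (edgeR adjusted p = 0.00157) and by 0.21 ± 0.070 in glabridin libraries (adjusted p = 0.0195), both against control. PDPR fell by 0.21 ± 0.065 (log2) in glabridin against melanosome libraries (edgeR adjusted p = 0.0254) and by 0.29 ± 0.065 against control (adjusted p = 0.00238). The first PDPR call was lost with only the 2 groups compared and without melanosome replicate 1, 2 or 3 (edgeR adjusted p 0.0542 to 0.0735). The DLD call in glabridin against control was lost without control replicate 2 or 3 and with upper-quartile factors (adjusted p 0.0546 to 0.0643). DLD in glabridin against melanosome was not called here, but was under 4 of 14 alternatives, at -0.31 (edgeR adjusted p = 0.00537) with library totals alone. PDPR has near-identical copies in the genome, so its count is uncertain. LAMB1, which overlaps DLD on the other strand, held 58.3, 66.6 and 64.0 CPM in glabridin, melanosome and control libraries. Reads of DLD and LAMB1 may be shared too, as the strand setting of the counting is not stated.

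In TPM, the order of the 10 genes differed between the groups. In glabridin libraries PDK4 led at 290.0 ± 48.98 TPM, above PDHA1 (85.2), PDHB (83.8), PDP1 (65.3) and PDHX (44.7), neighbours whose libraries overlapped. DLAT (22.1), PDK2 (19.5) and PDP2 (13.4) followed, again overlapping from one to the next, with PDK3 (4.76) and PDK1 (1.94) last. In melanosome libraries PDHA1 led at 120.0 ± 1.90 TPM over PDK4 at 98.7 ± 15.5 TPM and PDHB at 83.0 ± 1.02 TPM, with no overlap among them. In control libraries PDHB (59.9 TPM) and PDP1 (59.6 TPM) overlapped at the top, PDHA1 stood below PDHX (33.9 TPM) at 29.2 TPM, and PDK1 (2.58 TPM) was the lowest of those detected. The 4 subunit genes summed to 236 ± 13.4 TPM in glabridin, 260 ± 7.87 TPM in melanosome and 149 ± 3.29 TPM in control libraries. PDK1 was thus among the 2 lowest in each group.

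Counted together, 6 of the 10 genes were called in glabridin against melanosome libraries at an edgeR adjusted p under 0.05, where 43.9% of all tested genes were called. PDK4, PDP1, PDP2 and PDHX were higher (23.7% of all genes) and PDK1 and PDK3 lower (20.2%). The median log2 difference of the 10 was 0.064, against 0.012 over all tested genes. In melanosome against control libraries 5 of the 9 genes tested were called (62.5% of all genes), with PDK3, PDHA1 and PDHB higher (29.5%) and PDP2 and PDHX lower (33.0%). The median of the 9 was 0.25, against -0.058 over all genes. In glabridin against control libraries 6 of 9 were called (70.3% of all genes), with PDK3, PDP2, PDHA1, PDHB and PDHX higher (37.6%) and PDK1 lower (32.7%), at a median of 0.34 against 0.035. Libraries did not overlap for 6, 8 and 5 of these genes in the 3 comparisons, against 50.2%, 76.1% and 73.2% of all genes. The shares called among the 10 genes lay near those of all genes, so the counts are no result about the set.

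Scaling bears on these counts. With library totals alone, the median of all genes shifted by -0.18 (log2) in glabridin against melanosome and by 0.17 in melanosome against control. The share of calls that were higher was then 29% in the first comparison, against 54% with TMM, and 38% with upper-quartile factors, which shift the median by -0.11. In the second it was 66% with library totals alone and 47.2% with TMM. With library totals alone 3 of the 10 genes were higher and 4 lower in glabridin against melanosome libraries, PDK2 and PDHA1 joining the lower ones, and 5 of 9 were higher and 0 lower in melanosome against control.

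**Figure D3:**
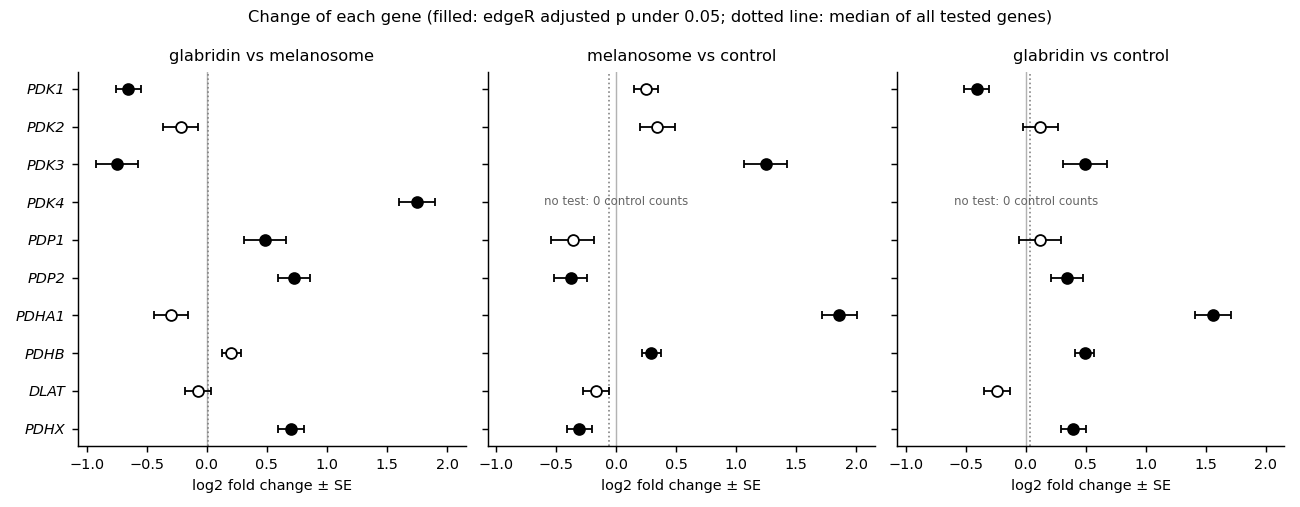
Log2 fold change ± SE of each gene in the 3 comparisons, from the edgeR fit of all 9 libraries, where filled points have an adjusted p under 0.05, the dotted line is the median of all tested genes, and PDK4 has no test against control. PDK4 lies farthest right for glabridin against melanosome at 1.75, and PDHA1 for the other comparisons at 1.86 and 1.56.

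The glabridin libraries differed from each other in an ordered way. PDP1, PDP2, DLAT and PDHX were lowest in replicate 2 and highest in replicate 3, by 1.89-, 1.54-, 1.33- and 1.38-fold of replicate 3 over replicate 2. PDK2, PDK3, PDHA1 and PDHB had the opposite order, by 1.58-, 1.66-, 1.64- and 1.21-fold of replicate 2 over replicate 3. PDK1 and PDK4 were lowest in replicate 1 and highest in replicate 2. Over all tested genes, 30.6% had the first order and 30.1% the second. Both marker sums of melanocytes and keratinocytes, given above, had the second order too. Their part in these spreads was not tested.

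**Figure D4:**
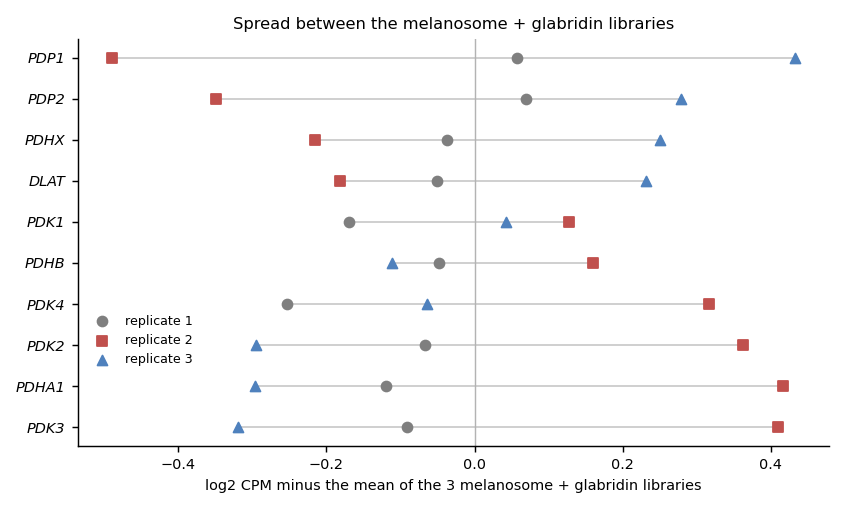
Log2 CPM of each gene in the 3 glabridin libraries (melanosome-laden, glabridin-treated cells), minus the mean of the 3. Replicate 2 (squares) is lowest for PDP1, PDP2, PDHX and DLAT and highest for the other 6, with PDP1 the widest at 1.89-fold between replicates 3 and 2.

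The genes around the complex were read from 7 further lists, described by counts alone and read against the percentages above. In the 2 comparisons with control, all 14 melanocyte markers were called higher too, at median log2 differences of 11.9 in glabridin and 12.0 in melanosome libraries, and their part in the list genes' values was not tested. Pyruvate supply and its other fates held 17 tested genes, of which 8 were higher and 4 lower in glabridin against melanosome libraries, 11 and 3 in melanosome against control, and 12 and 3 in glabridin against control. With limma 1 gene was lower in melanosome against control. MPC1, a subunit of the mitochondrial pyruvate carrier, averaged 38.7 ± 0.794 CPM in glabridin and 9.60 ± 0.829 CPM in control libraries (SD, n = 3 each; log2 2.01 ± 0.086, edgeR adjusted p = 1.3e-08). LDHA, which makes lactate from pyruvate, averaged 814 ± 159 CPM in glabridin and 2062 ± 30.1 CPM in melanosome libraries and fell by 1.34 ± 0.11 (log2, edgeR adjusted p = 6.32e-06). Its processed pseudogenes make that count uncertain. GPT2, the mitochondrial alanine transaminase, rose 2.66-fold in glabridin against melanosome libraries (edgeR adjusted p = 1.34e-06), and its cytosolic counterpart GPT fell by 2.38 ± 0.26 (log2) in glabridin against control (adjusted p = 1.28e-05) and by 1.33 in melanosome against control (adjusted p = 0.000671). ACSS1, a mitochondrial acetyl-CoA synthetase, rose 5.87-fold in melanosome against control libraries (edgeR adjusted p = 2.49e-07).

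The citric acid cycle, which the complex feeds, had 1 of 15 genes higher and 1 lower in glabridin against melanosome libraries, 11 higher and 1 lower in melanosome against control, and 11 higher and 0 lower in glabridin against control. IDH2, the mitochondrial NADP-linked isocitrate dehydrogenase, rose 2.99-fold in melanosome libraries (edgeR adjusted p = 6.76e-05) and 3.65-fold in glabridin libraries (adjusted p = 1.19e-05), both against control. SUCLA2, a succinyl-CoA synthetase subunit, fell by 0.34 ± 0.099 (log2) in melanosome against control libraries (edgeR adjusted p = 0.0118). Between glabridin and melanosome libraries, SDHB of complex II rose by 0.21 (edgeR adjusted p = 0.0261) and IDH3A fell by 0.30 (adjusted p = 0.0259), both on the log2 scale. Between glabridin and melanosome libraries these counts moved with single libraries. Genes higher numbered 7 without glabridin replicate 3 and 0 without melanosome replicate 2 or 3, and 0 under the 3 other scalings, with only the 2 groups compared, with DESeq2 and with limma. Genes lower numbered 2 without glabridin replicate 2 and with library totals alone, 0 without any 1 melanosome library, and 4 with limma. SUCLA2 lost its call without melanosome replicate 2 (edgeR adjusted p = 0.0515) and with library totals alone or limma. SDHB kept its call under 4 of 14 alternatives, at 0.025 (log2) with limma, and IDH3A under 11.

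Genes for lipoate and thiamine, the cofactors of the complex, had 1 of 16 higher and 2 lower in glabridin against melanosome libraries, and 8 higher and 4 lower in each of the other comparisons. SLC19A2, a thiamine transporter, averaged 34.1 ± 4.06 CPM in glabridin, 30.6 ± 4.31 CPM in melanosome and 6.12 ± 0.826 CPM in control libraries (SD, n = 3 each), 5.58-fold and 5.00-fold higher than in control (edgeR adjusted p = 1.07e-07 and 2.87e-07). GLRX5, of iron-sulfur cluster assembly, rose by 0.44 ± 0.061 (log2) in glabridin against melanosome libraries (edgeR adjusted p = 0.000215). MCAT, of the fatty acid synthesis that supplies lipoate, fell by 0.46 against melanosome (adjusted p = 0.00271) and by 0.44 against control (adjusted p = 0.0018). ISCA1 fell by 0.34 in melanosome against control libraries (adjusted p = 0.0212), a call kept under 7 of 14 alternatives. Genes higher in glabridin against melanosome numbered 2 without glabridin replicate 2 or 3. Genes lower in melanosome against control numbered 2 without melanosome replicate 3, without any 1 control library, with library totals alone and with limma.

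The sister 2-oxoacid dehydrogenases, which share DLD and the same cofactors, had 1 of 9 genes higher and 2 lower in glabridin against melanosome libraries, 3 and 2 in melanosome against control, and 4 and 2 in glabridin against control. OGDHL, a relative of the 2-oxoglutarate dehydrogenase E1, averaged 37.7 ± 12.2 CPM in glabridin, 43.1 ± 1.49 CPM in melanosome and 0.751 ± 0.146 CPM in control libraries (edgeR adjusted p = 2.16e-08 and 2.76e-08 against control). DBT and BCKDHB, of the branched-chain complex, were lower than in control, DBT by 0.89 ± 0.14 (log2) in melanosome libraries (edgeR adjusted p = 0.000363) and BCKDHB by 0.91 ± 0.11 in glabridin libraries (adjusted p = 2.77e-05). PPM1K, the phosphatase of that complex, rose by 0.64 ± 0.21 (edgeR adjusted p = 0.0262) and DHTKD1 fell by 0.43 ± 0.066 (adjusted p = 0.000461) in glabridin against melanosome libraries, both on the log2 scale. PPM1K kept its call under 6 of 14 alternatives, at 0.24 (adjusted p = 0.142) with limma. In that comparison, genes higher numbered 2 without glabridin replicate 2 and 0 without glabridin replicate 1 or 3 or melanosome replicate 2 or 3. Genes lower numbered 5 without glabridin replicate 2 and with limma, 4 with library totals alone, and 1 without melanosome replicate 2 or 3. In melanosome against control, 6 were higher with library totals alone, with only the 2 groups compared and with limma.

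HIF targets, among which PDK1 is usually placed, had 3 of 19 genes higher and 14 lower in glabridin against melanosome libraries, at a median log2 difference of -0.76 against 0.012 over all genes. Melanosome against control libraries had 11 higher and 4 lower (median 0.45), and glabridin against control 6 and 11 (median -0.50). The 4 lower in melanosome against control were 2 without melanosome replicate 2 or 3, without any 1 control library, under the 3 other scalings, with DESeq2 and with limma, while the 14 lower in glabridin against melanosome ranged from 13 to 16 over the alternatives. EGLN3, a prolyl hydroxylase that HIF induces, averaged 7.79 ± 0.874 CPM in glabridin, 57.2 ± 0.107 CPM in melanosome and 85.8 ± 1.09 CPM in control libraries (SD, n = 3 each), and fell by 2.87 ± 0.085 (log2, edgeR adjusted p = 1.24e-08) in glabridin against melanosome libraries. VEGFA, the angiogenic growth factor, went the other way and rose 3.58-fold in the same comparison (edgeR adjusted p = 6.61e-07). BNIP3, a mitophagy receptor, rose 7.10-fold in melanosome against control libraries (edgeR adjusted p = 2.25e-07), and PFKFB3, a glycolytic regulator, fell by 0.62 ± 0.055 (log2, adjusted p = 4.82e-06). ADM, the vasodilator peptide adrenomedullin, rose 3.40-fold in glabridin against control libraries (edgeR adjusted p = 5.76e-05), with a spread of 98.0 CPM around 217 CPM in glabridin libraries.

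PPAR and fasting targets, the family in which PDK4 is usually placed, were mixed. Of 13 genes, 5 were higher and 1 lower in glabridin against melanosome libraries, 2 and 5 in melanosome against control, and 5 and 6 in glabridin against control. With library totals alone the first count was 3 and 2 and the second 5 and 4, and with upper-quartile factors 4 and 2, and 4 and 4. Genes lower in glabridin against melanosome numbered 3 without glabridin replicate 2 and 2 without glabridin or melanosome replicate 3, and genes higher in melanosome against control numbered 1 without melanosome replicate 2 or 3 or control replicate 3. ANGPTL4, a lipase inhibitor, averaged 71.6 ± 6.99 CPM in glabridin, 138 ± 4.98 CPM in melanosome and 38.4 ± 1.83 CPM in control libraries (SD, n = 3 each). It fell by 0.94 ± 0.078 (log2) in glabridin against melanosome libraries (edgeR adjusted p = 6.53e-06), where PDK4 rose, and rose by 1.84 ± 0.080 in melanosome against control (adjusted p = 2.32e-08). PLIN2, a lipid droplet coat protein, rose by 0.75 ± 0.13 in glabridin against melanosome libraries (adjusted p = 0.00108). SLC25A20, the carnitine carrier, rose 2.14-fold in glabridin against control (edgeR adjusted p = 1.2e-05), and UCP2, a mitochondrial carrier, fell by 1.67 ± 0.24 in glabridin (adjusted p = 9.38e-05) and by 1.29 ± 0.23 in melanosome libraries (adjusted p = 0.000716), both log2 against control.

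Of 12 tested regulators of PDK genes, 5 were higher and 2 lower in glabridin against melanosome libraries (2 and 4 with library totals alone, 2 and 3 with upper-quartile factors), 2 and 7 in melanosome against control, and 4 and 5 in glabridin against control. The 5 higher in the first comparison were 2 without glabridin replicate 1 and 3 without melanosome replicate 2, the 7 lower in the second were 4 with library totals alone and with limma, and the 5 lower in the last were 3 without control replicate 2. PPARGC1A, a coactivator of mitochondrial and fasting genes, averaged 22.1 ± 3.46 CPM in glabridin, 30.4 ± 0.818 CPM in melanosome and 2.76 ± 0.415 CPM in control libraries (SD, n = 3 each). It rose 7.99-fold and 10.98-fold against control (edgeR adjusted p = 2.83e-08 and 1.8e-08) and fell by 0.46 ± 0.13 (log2) in glabridin against melanosome libraries (adjusted p = 0.0128). FOXO3, a forkhead factor that induces PDK4 in other tissues, rose 2.47-fold in glabridin against melanosome libraries (edgeR adjusted p = 7.27e-06). PPARG fell by 1.16 ± 0.085 (log2) in glabridin (edgeR adjusted p = 6.36e-07) and by 0.93 ± 0.084 in melanosome libraries (adjusted p = 5.38e-06), both against control. Over the 8 lists, DLD and PDPR included, 24 of 103 tested genes were higher and 27 lower in glabridin against melanosome libraries, 49 and 26 in melanosome against control, and 51 and 32 in glabridin against control.

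**Figure D5:**
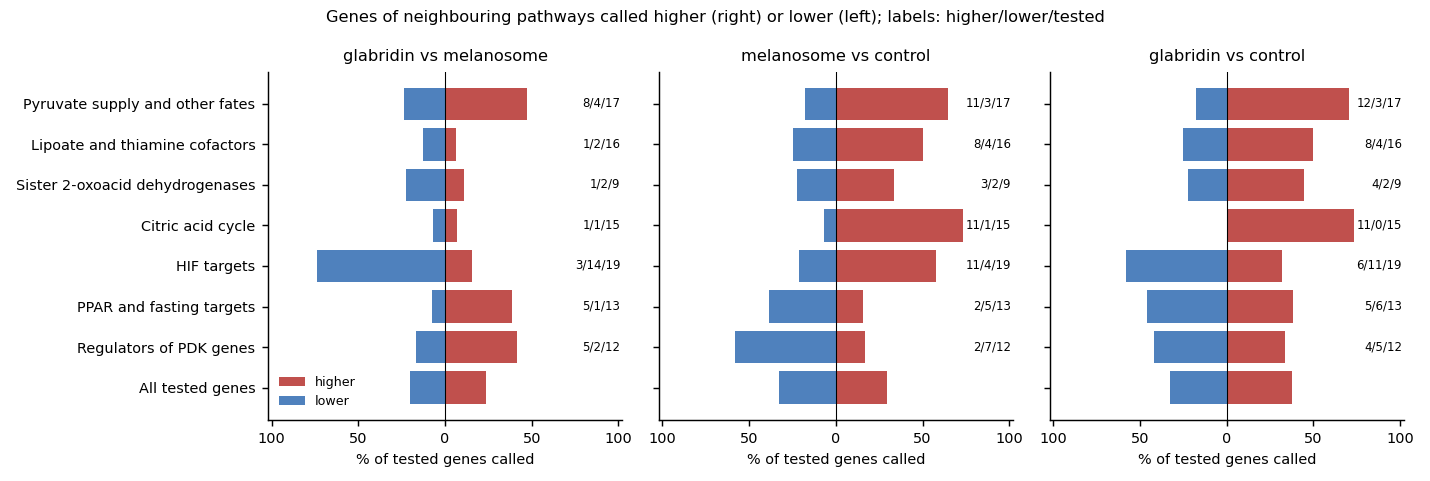
Percentage of tested genes called higher (right) and lower (left) in each list and over all tested genes, with the number higher, lower and tested at the right edge. HIF targets reach farthest left for glabridin against melanosome (14 of 19 lower), and the citric acid cycle farthest right for melanosome against control (11 of 15 higher).

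The genes most like PDK4 were sought among 11413 genes by the root-mean-square difference of log2 CPM profiles over the 9 libraries, each centred on its mean. They were A2M (0.351), SLC16A6 (0.658), TYR (0.909), TRPM1 (0.925) and VIM (0.930). A2M, a protease inhibitor, averaged 254 ± 50.1 CPM in glabridin, 125 ± 1.55 CPM in melanosome and 0 CPM in control libraries, the same order of groups as PDK4. SLC16A6, a monocarboxylate transporter, averaged 165 ± 10.4, 100.7 ± 10.1 and 0.00824 ± 0.0143 CPM in these groups. TYR and TRPM1, both on the melanocyte list, averaged 96.2 and 141.6 CPM in glabridin, 90.9 and 186 CPM in melanosome and 0 CPM in control libraries. VIM, which encodes vimentin, averaged 571, 641 and 0.182 CPM in these groups. The likeness rests largely on the absent or near-absent control counts that all 5 share with PDK4. On TPM profiles, 2 of the 5, A2M and SLC16A6, were again among the nearest.

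The genes most like PDK1 were GBP1 (0.0873), RFX5 (0.088), POLE (0.093), F3 (0.0937) and IRGQ (0.0941), and 0 of these 5 recurred on TPM profiles. POLE, the catalytic subunit of DNA polymerase epsilon, averaged 30.3 ± 3.69 CPM in glabridin, 47.8 ± 0.703 CPM in melanosome and 38.2 ± 2.02 CPM in control libraries (SD, n = 3 each). All 5 averaged lowest in glabridin and highest in melanosome libraries, like PDK1, an order that the search by profile itself selects for.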

How the data were processed

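Poly(A) RNA of 9 HaCaT libraries was made into strand-specific (dUTP) paired-end libraries, per the labels' protocols. The authors deposited raw counts per gene, not normalized, with TPM and FPKM beside them, per the file headers. The build was hg38, per the submitters' processing notes. No source used here names the aligner, the counter, its strand setting or the annotation. FPKM was not used, and the 2 deposited TPM tables differed by 0. Of 20263 identifiers, 20148 matched a symbol and 20224 had coordinates in GENCODE release 29 (GRCh38). Among counts from 1 to 49, 69.9% to 72.2% were even, against 48.7% to 51.1% of counts over 500.

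Groups came from the sample titles. Counts were tested with edgeR 4.0.16 (R 4.3.3, TMM, filterByExpr, quasi-likelihood, all 9 libraries, no replicate block). The 3 groups thus shared the same estimate of spread per gene, although glabridin libraries spread most. For PDK2 in melanosome against control the SE was 0.146, and 0.068 with only the 2 groups compared. For PDP1 in glabridin against melanosome it was 0.177, and 0.204 with only the 2 groups. The filter kept 13912 genes. P-values were Benjamini-Hochberg adjusted within each comparison and called under 0.05. SEs derive from the F statistic. CPM uses TMM-scaled library sizes. The edgeR script was tested on simulated data. Members, lists and tests were chosen with earlier results of these data known. All 10 members are named, with DLD and PDPR, the called gene with the largest rise and fall of each list in each comparison (mean log2 CPM of at least 1), and the 5 genes most like PDK4 and PDK1. PDHA2 and the overlapping genes were added after their values were seen. Alternatives were RLE, upper-quartile or no factors, DESeq2 1.42.0, no filter, 2 groups only, a replicate block, limma 3.58.1 on log2(TPM + 1), and leaving out each library. Chi-square per gene between replicates was 3.14 or more in every pair. All 9 were kept as separate samples, though this value cannot show that they were separate cultures.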

Additional observations from a re-analysis of the deposited data

How the results depend on the processing

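Of 1050 recomputed gene values, 932 kept direction and side of the threshold, 81 lost the call, 28 gained one and 9 reversed. Of 41 values of named list genes, 36 were called under all 14 alternatives. Calls of PDK1, PDK3, PDK4, PDP2 and PDHX (glabridin against melanosome), PDK3, PDHA1 and PDHB (melanosome against control) and PDK1, PDHA1, PDHB and PDHX (glabridin against control) held under all 14 alternatives. For glabridin against melanosome, genes of the set called lower numbered 4 with library totals alone and with limma, and 2 to 4 when a library was left out. List genes called higher there numbered 15 with totals alone and with limma, and lower 42 with limma. For melanosome against control, 5 genes were higher with RLE, totals alone, upper quartile, only the 2 groups, DESeq2 and limma. Lower were 1 with RLE, 0 with totals alone, upper quartile and limma, and 0 to 1 when a library was left out. List genes called lower numbered 16 with totals alone and 15 with limma. For glabridin against control, 3 genes were higher with upper quartile and only the 2 groups, and 3 to 5 when a library was left out. Lower were 2 with upper quartile and 1 to 2 when a library was left out. The cause was not tested.

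None of the reversed values passed a test. DLAT in glabridin against melanosome was 0.013 without glabridin replicate 2 and 0.0051 without melanosome replicate 1 (range -0.20 to 0.013 when a library was left out). DLAT in melanosome against control was 0.00088 with totals alone and 0.0074 with limma, and PDPR was 0.087 and 0.097 there and 0.0018 with only the 2 groups. In glabridin against control, PDK2 was -0.081 without glabridin replicate 2 (range -0.081 to 0.26) and PDP1 -0.12 without glabridin replicate 3 (range -0.12 to 0.33). From CPM, which ignores length, PDK1 held 2.50%, 9.65% and 31.9%, PDK3 1.04%, 4.35% and 7.21%, and PDK4 89.7%, 66.2% and 0% of the kinase sum in glabridin, melanosome and control, and PDK2 60.9% in control. Genes most like PDK4 and PDK1 shared 2 and 0 of 5 with those on TPM profiles. The titles' replicate numbers did not pair libraries (9 correlations, -0.23 to 0.050). With them as a replicate block, PDP2 in glabridin against control lost its call (0.33, edgeR adjusted p = 0.0557), and no other call of the 10 genes changed.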

Other observations

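PDHA1 and PDK3, both higher in melanosome than in control libraries, lie on the short arm of the X chromosome, between positions 19343893 and 24541862 (GRCh38) with 26 genes of the table from one to the other. This stretch was looked at after the values were seen, and no test was made. Without these 2 genes, 18 of the genes in it were tested, and 9 were higher and 3 lower in melanosome against control libraries, at a median log2 difference of 0.55. Of all 474 tested X-linked genes, 37.8% were higher in that comparison, at a median of 0.080, and of all tested genes 29.5% were. In glabridin against control libraries, 11 of the 18 were higher and 2 lower, at a median of 0.78. There, 46.2% of tested X-linked genes and 37.6% of all tested genes were higher. In glabridin against melanosome libraries, 3 of the 18 were higher and 3 lower, against 23.7% and 20.2% of all tested genes.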
